A study of Mus musculus with 12 samples.

Results

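Loss of CD18, the β2 chain of the leukocyte integrins, was examined in regulatory T cells (Treg) after stimulation through the T cell receptor. The comparison held 6 of the series' 12 RNA libraries, chosen by their treatment label: 3 from CD18Foxp3 mice and 3 from CD18wt mice, which the labels number as biological replicates. CD18Foxp3 mice carry a loxP-flanked exon 3 of Itgb2, the gene of CD18, together with Foxp3-Cre, which acts in cells that express the Treg transcription factor Foxp3. CD18wt littermates carry Foxp3-Cre as well and have unmodified Itgb2 alleles, and both genotypes carry a ROSA26 RFP reporter by which the splenic CD4+ Treg were sorted. All 6 cultures received 5 U/mL IL-2 overnight together with 1 µg/mL anti-CD3 and 2 µg/mL anti-CD28. The other 6 libraries came from Treg of both genotypes kept in 5 U/mL IL-2 alone and are used only for side-by-side values. Cre acted in the animal, before the culture, and the CD18Foxp3 line develops inflammation, so an effect of lost CD18 within the cell and an effect of the host from which it was sorted cannot be told apart. The ages of the mice are not given in the sources used here.

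Treg restrain other immune cells, and recognition of antigen with CD28 costimulation drives them from a resting, lymphoid-organ state into an effector state with inhibitory receptors, tissue-homing receptors and cell division. CD18 pairs with the α chains CD11a, CD11b, CD11c or CD11d, and the CD11a pair, LFA-1, binds ICAM-1 on antigen-presenting cells and contributes to adhesion and costimulation.

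The deleted segment is shown because it defines the genotype and because it bears on what the per-gene count of Itgb2 can show. Exon 3 of the main Itgb2 transcript lies within the coding sequence at chr10:77542398-77542486 on the plus strand of GRCm38 (GENCODE), is one of 16 exons and has 89 bases, 2 more than a whole number of codons.
Itgb2 exon 3: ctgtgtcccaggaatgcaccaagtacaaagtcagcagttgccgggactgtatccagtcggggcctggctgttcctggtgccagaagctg
It makes up 2.997% of the transcript. Reads from the remaining exons still count toward the gene after recombination, so the count measures Itgb2 RNA and not CD18 protein. Itgb2 was at 331, 329 and 329.6 TPM in the CD18wt libraries and 131, 202 and 183 TPM in the CD18Foxp3 libraries. The 3 CD18wt libraries were nearly identical and every CD18Foxp3 library lay below them, so that all 6 libraries matched their labels. The level was 1.91-fold lower in CD18Foxp3 (log2 fold change -0.94 ± 0.17 SE, adjusted p = 0.216, edgeR quasi-likelihood test). An exact two-sided permutation test gave p = 0.1, the smallest value that 3 against 3 libraries allow. Intron reads of Itgb2 showed a log2 difference of -0.22 ± 0.24 SE (adjusted p = 0.9998). Itgal, which encodes CD11a, was at 267, 288 and 308 TPM in the CD18wt libraries and 205, 258 and 241 TPM in the CD18Foxp3 libraries (log2 fold change -0.29 ± 0.14 SE, adjusted p = 0.998), and all 3 CD18Foxp3 libraries were below the CD18wt libraries. The genes of CD11b, CD11c and CD11d were at most 0.689 TPM in any of the 6 libraries and were not tested.

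The CD18wt libraries held 11940189 to 17027608 exon reads and the CD18Foxp3 libraries 15617659 to 18978591. Foxp3 was at 133 to 173 TPM in CD18wt and 146 to 207 TPM in CD18Foxp3, and some defining markers of B cells (Ms4a1 and Pax5, at most 0.21 TPM) and macrophages (Csf1r and Adgre1, at most 0.178 TPM) were near 0 throughout. Other members of these lists were present in all 6 libraries, Cd79b at 8.17 to 18 TPM, Cd68 at 5.55 to 10.3 TPM and Cst3 at 115 to 183 TPM, and the myeloid list, mostly Cst3, summed to 123 to 192 TPM in CD18wt and 154 to 197 TPM in CD18Foxp3. CD18Foxp3 replicate 1 stood apart: its log2 CPM, the exon reads scaled to a common library size, correlated at 0.968 to 0.978 with the other 5 libraries, against 0.979 to 0.989 among those, it defined the first principal component (34.8% of the variance), and 3.3% of its exon reads were mitochondrial, against 1.96% to 2.76% in the others. CD18wt replicate 2 held more RNA of the MHC class II genes (H2-Ab1 11.5 TPM, against 1.25 to 4.53 in the other 5) and fewer intron reads.

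Across the whole transcriptome no gene passed the study's threshold (fold change of at least 1.5 and Benjamini-Hochberg adjusted p of at most 0.01): edgeR's quasi-likelihood test called 0 of 11930 genes, 0%, and none reached an adjusted p of 0.05 either. At an unadjusted p under 0.05, 583 genes (4.89%) differed, 316 of them higher (2.65%) and 267 lower (2.24%) in CD18Foxp3. Other count models called a small set. DESeq2 called 22 genes past the threshold (0.164%), 17 of them higher (0.126%) and 5 lower (0.0372%). The likelihood ratio test of edgeR called 16 (0.134%), and 14 genes were called by both. Among these 14 were Gzmb, Gpr15, Il1rl1, Il13, Icos, Ccr8, Tnfrsf8, Ly6a, Gas2l3 and Mreg, all higher in CD18Foxp3, and Itgb2 and St8sia1, both lower. The genes are therefore described by whether they separated the genotypes. A gene was counted as separated when its fold was at least 1.5 and all 3 libraries of one genotype lay beyond all 3 of the other, both in total exon reads and in reads placed uniquely, each scaled to library size. By this description 214 genes (1.79% of those tested) were higher and 174 (1.46%) lower in CD18Foxp3. Without the fold requirement, 5.15% of all genes were higher and 4.74% lower with no overlap in total exon reads. With 3 against 3 libraries, labels assigned at random reach shares near these on average. Separation is therefore a description, and by itself no evidence of a genotype effect on a gene. Most separated genes were weakly expressed: the median mean level of the higher genes was 2.64 TPM in CD18wt and 5.06 TPM in CD18Foxp3. Of the higher genes, 82 kept an unadjusted p under 0.05 whichever library was left out, and of the lower genes 37. CD18Foxp3 replicate 3 was the highest library for 126 of the higher genes, replicate 1 for 61 and replicate 2 for 27. In a bulk library, more RNA per cell and more cells of a given state cannot be told apart.

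**Figure D1:**
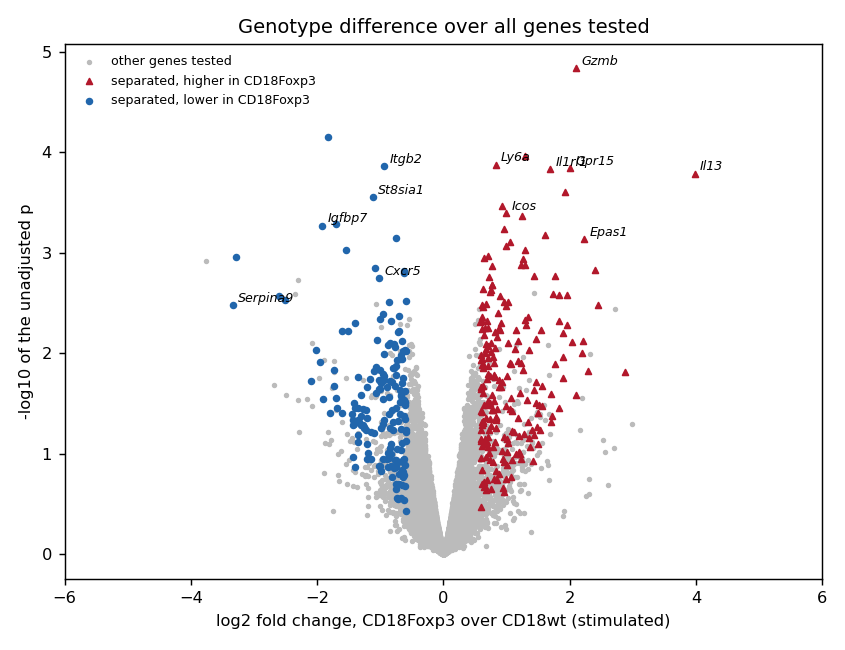
Each point is 1 of the 11930 genes tested, with the log2 fold change of CD18Foxp3 over CD18wt on the x axis and -log10 of the unadjusted p of edgeR's quasi-likelihood test on the y axis. Red triangles are the 214 genes higher and blue circles the 174 genes lower in all CD18Foxp3 libraries, Gzmb has the smallest p, and 1 gene outside ±6 is not shown.

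Genes of effector and tissue Treg lay mostly on the higher side in CD18Foxp3, 15 of 17 with a positive log2 fold change (background 49.5%). Of 17 members tested, 5 were separated and higher and none lower, 11 were higher and 0 lower at an unadjusted p under 0.05 (background 2.65% and 2.24%), and the median log2 fold change was 0.56, against -0.00295 over all genes tested. The lists share genes, so their counts are not independent: Il1rl1, Ccr8 and Icos are counted again in lists described below. Icos, a costimulatory receptor that maintains effector Treg, was at 358, 244 and 278 TPM in the CD18wt libraries and 677, 424 and 613 TPM in the CD18Foxp3 libraries. Every CD18Foxp3 library was above the highest CD18wt library, a 1.98-fold difference (log2 fold change 0.99 ± 0.20 SE, adjusted p = 0.367). Ccr8, a chemokine receptor of Treg in tissues and tumors, was at 259, 249 and 259 TPM in the CD18wt libraries and 501, 363 and 576 TPM in the CD18Foxp3 libraries (1.9-fold, log2 fold change 0.92 ± 0.19 SE, adjusted p = 0.339). Gata3, a transcription factor of tissue Treg and of type 2 helper cells, was at 136, 109 and 88 TPM in the CD18wt libraries and 169, 153 and 214 TPM in the CD18Foxp3 libraries (log2 fold change 0.69 ± 0.20 SE, adjusted p = 0.709). Prdm1, which encodes Blimp-1, a regulator of effector differentiation, was at 29.2, 21.8 and 17.8 TPM in the CD18wt libraries and 34.4, 33.1 and 39.1 TPM in the CD18Foxp3 libraries (log2 fold change 0.64 ± 0.20 SE, adjusted p = 0.769). Within the group, Batf, Klrg1, Maf, Id2, Pparg and Rora had an unadjusted p under 0.05 with log2 differences of 0.47 to 1.12 but were not separated. Il10 was at 135, 89.2 and 126 TPM in the CD18wt libraries and 179.8, 153 and 112 TPM in the CD18Foxp3 libraries, with overlapping genotypes (log2 fold change 0.37 ± 0.20 SE, adjusted p = 0.998), and Irf4 was at 359, 473 and 568 TPM in the CD18wt libraries and 507, 404 and 337 TPM in the CD18Foxp3 libraries (log2 fold change -0.15 ± 0.20 SE, adjusted p = 0.998). The group's size rested in part on single libraries: 6 members had an unadjusted p under 0.05 without CD18Foxp3 replicate 3 (median 0.39), 5 without CD18wt replicate 3 (median 0.46), 7 without CD18wt replicate 2 and 11 without any one of the other 3 libraries.

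Receptors of the IL-1 family, through which Treg sense the tissue alarm signals IL-33 and IL-18, showed the largest median of all lists. Of 6 members tested, 4 were separated and higher (background 1.79%), and the median log2 fold change was 1.10. Il1rl1, which encodes the IL-33 receptor ST2, was at 5.12, 3.54 and 4.5 TPM in the CD18wt libraries and 10.3, 9.86 and 21.7 TPM in the CD18Foxp3 libraries (3.24-fold, log2 fold change 1.69 ± 0.31 SE, adjusted p = 0.216). The genotypes did not overlap, and CD18Foxp3 replicate 3 was the highest. Il18r1, the ligand-binding chain of the IL-18 receptor, was at 45.1, 17.9 and 30.3 TPM in the CD18wt libraries and 56.6, 51.8 and 72 TPM in the CD18Foxp3 libraries (log2 fold change 0.98 ± 0.26 SE, adjusted p = 0.627). Il18rap, its accessory chain, was at 9.45, 5.16 and 4.88 TPM in the CD18wt libraries and 12.6, 12.3 and 22.3 TPM in the CD18Foxp3 libraries (log2 fold change 1.30 ± 0.31 SE, adjusted p = 0.506). Il1r2, a decoy receptor that binds IL-1 without signalling, was at 66, 51.3 and 65.5 TPM in the CD18wt libraries and 135, 79.8 and 204 TPM in the CD18Foxp3 libraries (log2 fold change 1.22 ± 0.29 SE, adjusted p = 0.506). Each of these 4 genes kept an unadjusted p under 0.05 whichever library was left out.

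Gzmb, which encodes the serine protease granzyme B that some activated Treg use to kill target cells, had the smallest p of all genes. It was at 38.5, 49.4 and 59.97 TPM in the CD18wt libraries and 145, 172 and 313 TPM in the CD18Foxp3 libraries. The lowest CD18Foxp3 library was well above the highest CD18wt library, and the 4.28-fold difference (log2 fold change 2.10 ± 0.28 SE, adjusted p = 0.174) had an adjusted p of 9.71e-11 with DESeq2 and 2.05e-08 with the likelihood ratio test. Without CD18Foxp3 replicate 3, the highest library, the log2 fold change was 1.69. Ctsw, which encodes the lymphocyte protease cathepsin W, was at 41.5, 10.7 and 27.7 TPM in the CD18wt libraries and 44.6, 45.1 and 49.4 TPM in the CD18Foxp3 libraries (log2 fold change 0.85 ± 0.36 SE, adjusted p = 0.97). Serpinb9, an inhibitor that protects cells from granzyme B, was at 42, 29.1 and 45.1 TPM in the CD18wt libraries and 60.2, 47.9 and 62.8 TPM in the CD18Foxp3 libraries (log2 fold change 0.58 ± 0.18 SE, adjusted p = 0.7999). In all, 5 of 10 granule genes were higher and 0 lower at an unadjusted p under 0.05, with a median log2 fold change of 0.46 (background 2.65% and 2.24%). The higher count was 2 without CD18Foxp3 replicate 3 and 3 without CD18wt replicate 2 or replicate 3. The part of other cytotoxic cells in these values was not tested. Markers of other cytotoxic lymphocytes varied: Ncr1 was at 0 in all 6 libraries, Gzma, Klrb1c and Klrk1 were at most 0.243 TPM, Cd8a and Klrd1 were at most 1.21 TPM, and Cd8b1 was at 12.5 to 17.7 TPM in CD18wt and 16.6 to 25.8 TPM in CD18Foxp3, with overlap (log2 fold change 0.43). The whole marker list, mostly Tbx21, summed to 80.2 to 109 TPM in CD18wt and 58.4 to 118 TPM in CD18Foxp3.

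Receptors that guide T cells to tissues differed in both directions. Of 14 homing receptors tested, 6 were separated and higher and 1 was separated and lower (background 1.79% and 1.46%), with a median log2 fold change of 0.40 that was 0.23 without CD18wt replicate 2 and 0.59 without CD18wt replicate 1. Gpr15, a receptor for homing to the large intestine, was at 46.7, 30.3 and 18.8 TPM in the CD18wt libraries and 116, 89.6 and 176 TPM in the CD18Foxp3 libraries (4.02-fold, log2 fold change 2.01 ± 0.34 SE, adjusted p = 0.216). Cxcr6, the receptor of CXCL16, was at 48.9, 25.5 and 22 TPM in the CD18wt libraries and 71, 61.1 and 94.2 TPM in the CD18Foxp3 libraries (2.39-fold, log2 fold change 1.25 ± 0.29 SE, adjusted p = 0.489). Ccr4, a receptor of Treg that home to skin and to dendritic cells, was at 116, 109 and 107 TPM in the CD18wt libraries and 204, 134 and 212 TPM in the CD18Foxp3 libraries (log2 fold change 0.74 ± 0.19 SE, adjusted p = 0.601). Ccr2, an inflammatory chemokine receptor, was low, at 0.438 to 1.996 TPM in CD18wt and 2.85 to 3.73 TPM in CD18Foxp3, and separated as well. Cxcr5, which directs cells into B cell follicles, went the other way at 19.3, 30.6 and 22.2 TPM in the CD18wt libraries and 12.6, 14 and 9.08 TPM in the CD18Foxp3 libraries (2.03-fold lower, log2 fold change -1.02 ± 0.26 SE, adjusted p = 0.534). Ccr7, the receptor for entry into lymph nodes, was at 252, 224 and 304 TPM in the CD18wt libraries and 221, 209 and 152 TPM in the CD18Foxp3 libraries, with every CD18Foxp3 library below every CD18wt library at a fold under 1.5 (log2 fold change -0.40 ± 0.17 SE, adjusted p = 0.973). Cxcr3 and Ccr6 had log2 differences of -0.39 and -0.25 and unadjusted p of 0.0721 and 0.258 in the same quasi-likelihood fit.

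**Figure D2:**
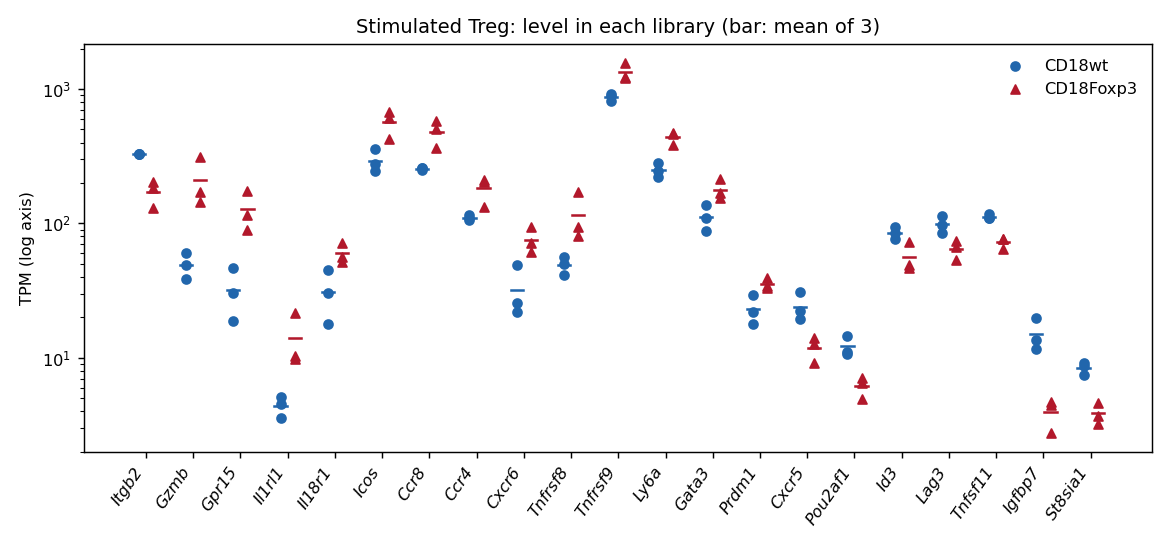
TPM on a log axis of 21 genes in each of the 6 stimulated libraries, with CD18wt as blue circles, CD18Foxp3 as red triangles and a bar at the mean of 3 libraries. In every gene shown the genotypes did not overlap, and Gzmb, Gpr15 and Il1rl1 show the widest gaps among the genes higher in CD18Foxp3.

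Of the TNF receptor superfamily, 2 members were separated and higher (background 1.79%) of 14 tested. Tnfrsf8, which encodes CD30, was at 56.3, 41.2 and 49.96 TPM in the CD18wt libraries and 81.2, 93.9 and 171 TPM in the CD18Foxp3 libraries (2.38-fold, log2 fold change 1.25 ± 0.25 SE, adjusted p = 0.367). Tnfrsf9, which encodes the activation receptor 4-1BB, was at 886, 808 and 915 TPM in the CD18wt libraries and 1236, 1211 and 1575 TPM in the CD18Foxp3 libraries (1.56-fold, log2 fold change 0.64 ± 0.15 SE, adjusted p = 0.489). The list's median log2 fold change was 0.19, and 0.08 without CD18Foxp3 replicate 3 or 0.09 without CD18wt replicate 3. Among costimulatory and coinhibitory receptors, Cd200r1, an inhibitory receptor, was higher at 37.8, 22.4 and 18.3 TPM in the CD18wt libraries and 43.7, 39.4 and 48.2 TPM in the CD18Foxp3 libraries (log2 fold change 0.76 ± 0.25 SE, adjusted p = 0.813). Lag3, an inhibitory receptor that binds MHC class II, was lower at 97.4, 85.1 and 114 TPM in the CD18wt libraries and 53.7, 74.5 and 66.6 TPM in the CD18Foxp3 libraries (log2 fold change -0.59 ± 0.16 SE, adjusted p = 0.627). Cd6 and Cd200 had log2 differences of -0.55 and -0.45 and were not separated. Ly6a, a membrane protein of activated and memory T cells known as Sca-1, was at 244, 223 and 281 TPM in the CD18wt libraries and 459, 473 and 383 TPM in the CD18Foxp3 libraries (1.77-fold, log2 fold change 0.83 ± 0.15 SE, adjusted p = 0.216), and its log2 fold change stayed between 0.77 and 0.91 when single libraries were left out.

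Genes that define Treg identity were not separated in any case (0 of 15, background 1.79% higher and 1.46% lower). At an unadjusted p under 0.05, 6 were higher and 0 lower (background 2.65% and 2.24%), with a median log2 fold change of 0.24. The higher count was 3 without CD18wt replicate 2, CD18wt replicate 3 or CD18Foxp3 replicate 3, and without CD18wt replicate 3 1 member was lower. Foxp3 itself was at 166, 133 and 173 TPM in the CD18wt libraries and 146, 206 and 207 TPM in the CD18Foxp3 libraries, with overlapping genotypes (log2 fold change 0.26 ± 0.16 SE, adjusted p = 0.998). Il2ra, the α chain of the IL-2 receptor, was at 883, 926 and 1131 TPM in the CD18wt libraries and 1550.01, 1151 and 1414 TPM in the CD18Foxp3 libraries, so that the CD18Foxp3 libraries were all higher by a fold below 1.5 (log2 fold change 0.50 ± 0.16 SE, adjusted p = 0.813). Ikzf2, the transcription factor Helios, was at 166, 155 and 187 TPM in the CD18wt libraries and 278, 196 and 215 TPM in the CD18Foxp3 libraries (log2 fold change 0.46 ± 0.17 SE, adjusted p = 0.91). Ctla4, an inhibitory receptor central to Treg function, was at 559.8, 369.8 and 809.7 TPM in the CD18wt libraries and 1131, 739 and 906 TPM in the CD18Foxp3 libraries and overlapped (log2 fold change 0.71 ± 0.24 SE, adjusted p = 0.856).

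Among 10 integrin genes outside the β2 family, 3 were separated and higher (background 1.79%). Itgae, the α chain of CD103 that binds E-cadherin on epithelium, was at 15.6, 7.87 and 5.67 TPM in the CD18wt libraries and 26.9, 21.8 and 81.7 TPM in the CD18Foxp3 libraries (4.56-fold, log2 fold change 2.19 ± 0.62 SE, adjusted p = 0.813). CD18Foxp3 replicate 3 was far above the others, and without it the log2 fold change was 1.35. Itgb8, whose pair with the αv chain activates latent TGF-β, was at 24.3, 17.3 and 24.1 TPM in the CD18wt libraries and 42.5, 30.1 and 33.9 TPM in the CD18Foxp3 libraries (log2 fold change 0.72 ± 0.18 SE, adjusted p = 0.528). Itgb3, another partner of αv, was at 5.1, 4.9 and 5.92 TPM in the CD18wt libraries and 10.1, 6.95 and 11.4 TPM in the CD18Foxp3 libraries (log2 fold change 0.86 ± 0.24 SE, adjusted p = 0.702). Itgav, the αv chain itself, was at 61, 59.7 and 63.6 TPM in the CD18wt libraries and 91.6, 68.6 and 75.5 TPM in the CD18Foxp3 libraries, higher in every CD18Foxp3 library at a fold under 1.5 (log2 fold change 0.37 ± 0.16 SE, adjusted p = 0.976). Itgb1 and Itga4, which form VLA-4, had log2 differences of -0.09 and -0.35 with overlapping libraries. In the wider TGF-β list, Tgfbr3, a coreceptor, was separated and lower at 2.99 to 3.81 TPM in CD18wt and 1.73 to 2.42 TPM in CD18Foxp3, and the list's median was -0.04. Regulators of integrin activation and actin showed none separated of 18 (background 1.79% higher and 1.46% lower) and a median of 0.01.

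Genes of mitosis all lay on the higher side in CD18Foxp3. Every one of the 18 genes tested had a positive log2 fold change (median 0.49, background 49.5% positive), 12 had an unadjusted p under 0.05 (background 2.65%) and 4 were separated (background 1.79%). Cenpe, a kinetochore motor, was at 10.02, 7.96 and 13.5 TPM in the CD18wt libraries and 16.1, 17.1 and 19.3 TPM in the CD18Foxp3 libraries (log2 fold change 0.77 ± 0.18 SE, adjusted p = 0.506). Mki67, the proliferation marker Ki-67, was at 54.3, 34.7 and 59.3 TPM in the CD18wt libraries and 67.9, 74.9 and 88.6 TPM in the CD18Foxp3 libraries (log2 fold change 0.67 ± 0.18 SE, adjusted p = 0.627). Bub1, a spindle checkpoint kinase, was at 17.6, 14.1 and 20.4 TPM in the CD18wt libraries and 25.5, 23.2 and 29.6 TPM in the CD18Foxp3 libraries (log2 fold change 0.61 ± 0.18 SE, adjusted p = 0.724). Ccnb1, cyclin B1, was at 34.7, 38.4 and 27.6 TPM in the CD18wt libraries and 46, 43.5 and 65.9 TPM in the CD18Foxp3 libraries (log2 fold change 0.63 ± 0.21 SE, adjusted p = 0.868). The size differed between animals. Relative to the CD18wt mean of each gene, the median over the 18 genes was 1.75 in CD18Foxp3 replicate 3, 1.24 in replicate 1 and 1.22 in replicate 2, against 1.09, 1.03 and 0.859 in CD18wt replicates 1, 2 and 3. Without CD18Foxp3 replicate 3, 3 genes had an unadjusted p under 0.05 (median 0.33), and without CD18wt replicate 3 4 (median 0.37). Genes of DNA replication had 1 of 20 higher at that p (background 2.65%) and a median of 0.10. G1 cyclins, kinases and inhibitors had 1 of 16 higher and a median of 0.04. Gas2l3 and Hmmr, which act on the cytoskeleton and spindle in dividing cells and were in no list, were separated and higher as well, at 7.49, 4.46 and 5.99 TPM in the CD18wt libraries and 12.6, 12.5 and 17.9 TPM in the CD18Foxp3 libraries for Gas2l3 (log2 fold change 1.29 ± 0.23 SE, adjusted p = 0.216) and 9.18 to 12.7 TPM in CD18wt and 17.6 to 24.3 TPM in CD18Foxp3 for Hmmr.

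**Figure D3:**
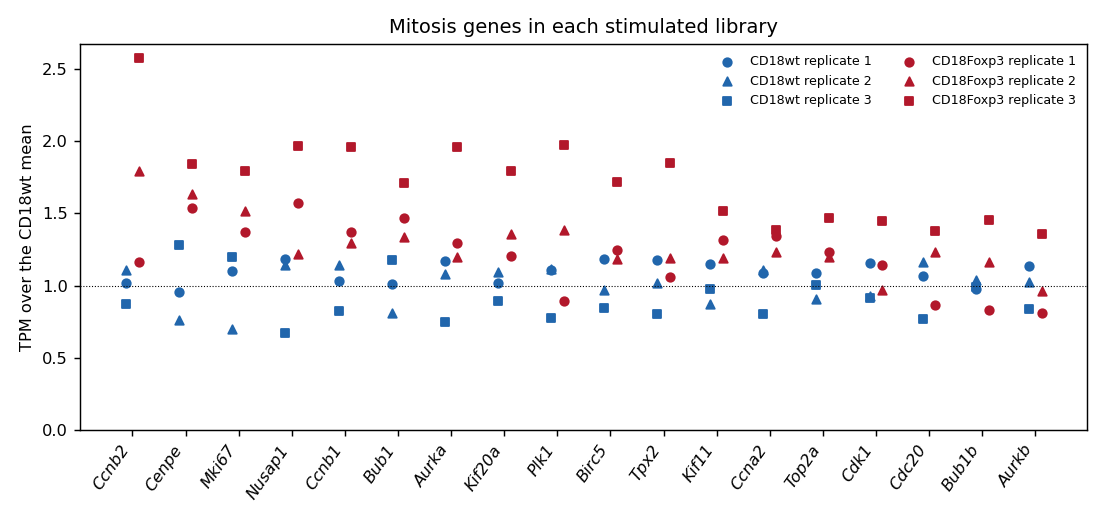
TPM of 18 mitosis genes in each stimulated library, divided by the mean of the 3 CD18wt libraries of that gene, with CD18wt in blue, CD18Foxp3 in red and the marker shape giving the replicate number. CD18Foxp3 replicate 3 (red squares) is above 1 in all 18 genes, with a median of 1.75, while replicates 1 and 2 are closer to the CD18wt libraries.

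Promoters of 2 of these mitosis genes are shown, and that of Gzmb as the gene with the smallest p. Whether promoter elements bear on the levels of these genes was not tested. The 250 bases before the RefSeq start site were searched on both strands for CCAAT (the CCAAT box bound by NF-Y) and TTTGAA (the cell cycle homology region), whose matches can overlap only at their ends, and in Gzmb for the AP-1 site TGANTCA. Matches are in capitals, the sequences read 5′ to 3′ on the gene's strand, and coordinates are GRCm38.p6.
Mki67, chr7:135716380-135716629, minus strand: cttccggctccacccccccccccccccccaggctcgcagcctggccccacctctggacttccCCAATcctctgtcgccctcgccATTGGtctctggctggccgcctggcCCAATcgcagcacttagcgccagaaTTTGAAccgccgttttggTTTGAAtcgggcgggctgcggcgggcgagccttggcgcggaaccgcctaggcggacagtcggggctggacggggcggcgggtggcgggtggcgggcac
Ccnb1, chr13:100786487-100786736, minus strand: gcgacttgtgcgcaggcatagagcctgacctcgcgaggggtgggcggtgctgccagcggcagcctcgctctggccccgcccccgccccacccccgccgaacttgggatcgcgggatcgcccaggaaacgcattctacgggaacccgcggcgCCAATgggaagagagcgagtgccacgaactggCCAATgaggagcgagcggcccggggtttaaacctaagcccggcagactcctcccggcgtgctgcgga
Gzmb, chr14:56262335-56262584, minus strand: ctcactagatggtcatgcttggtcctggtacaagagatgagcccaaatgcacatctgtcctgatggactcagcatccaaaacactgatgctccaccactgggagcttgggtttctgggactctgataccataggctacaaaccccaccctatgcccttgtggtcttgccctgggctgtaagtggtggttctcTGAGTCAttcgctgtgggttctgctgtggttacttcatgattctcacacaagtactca
The CCAAT box was present in 12 of 14 mitosis genes that had a promoter in the table (85.7%) and in 37.2% of the 9190 promoters of all genes tested, and the cell cycle homology region in 6 of 14 (42.9%) and 10.6%. Of the 2 mitosis promoters shown, that of Mki67 held TTTGAA and that of Ccnb1 did not. Other spellings of the cell cycle homology region were not searched, so its absence cannot be read from these matches. The promoters of Cenpe and Bub1, not shown, held the CCAAT box and no TTTGAA. Among all separated genes the CCAAT box was present in 37% of 154 promoters of the higher and 33.9% of 121 promoters of the lower genes. The cell cycle homology region was present in 14.9% of the promoters of the higher and 4.96% of those of the lower genes. An AP-1 site was found in 5.84% of the promoters of the higher genes, 3.31% of those of the lower genes and 3.85% of all. The promoter of Gpr15, not shown, also held an AP-1 site, and that of Il1rl1 held none. A match is a description of the letters and not of a bound site.

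Cytokine genes showed single differences rather than a shared one. Il13, a type 2 cytokine, had 0, 4 and 4 exon reads in the CD18wt libraries and 71, 39 and 38 in the CD18Foxp3 libraries, that is 0, 0.578 and 0.644 TPM in the CD18wt libraries and 9.3, 5.82 and 6.16 TPM in the CD18Foxp3 libraries. This was the largest difference among the separated genes (log2 fold change 3.98 ± 0.74 SE, adjusted p = 0.216), from a level near the detection limit in CD18wt. The other type 2 cytokines Il4 and Il5 overlapped between the genotypes, at 1.26 to 2.84 TPM in CD18wt and 1.75 to 6.82 TPM in CD18Foxp3 for Il4 (log2 fold change 1.35 ± 0.65 SE, adjusted p = 0.998) and 0 to 1.64 TPM in CD18wt and 0.103 to 8.64 TPM in CD18Foxp3 for Il5 (log2 fold change 2.53 ± 1.26 SE, adjusted p = 0.998). Tnfsf11, which encodes RANKL, was lower at 118, 109.9 and 109 TPM in the CD18wt libraries and 77.1, 76.8 and 64.1 TPM in the CD18Foxp3 libraries (log2 fold change -0.62 ± 0.15 SE, adjusted p = 0.523). Il2 was at 141, 67.3 and 41 TPM in the CD18wt libraries and 60.6, 46.9 and 16 TPM in the CD18Foxp3 libraries and Ifng at 89, 103 and 66.3 TPM in the CD18wt libraries and 65.8, 192 and 47.9 TPM in the CD18Foxp3 libraries, both with overlap. Il17a ranged from 0 to 38.2 TPM and was at 0 in CD18wt replicate 2 and CD18Foxp3 replicate 3. Ahr, a transcription factor of intestinal and Th17 cells, was separated and higher at 18.1, 10.9 and 11.8 TPM in the CD18wt libraries and 22.9, 19.2 and 23.1 TPM in the CD18Foxp3 libraries (log2 fold change 0.70 ± 0.21 SE, adjusted p = 0.724). Of the regulatory effectors, Ebi3, a subunit of IL-35 and IL-27, was at 46.8, 31.6 and 30.6 TPM in the CD18wt libraries and 56.8, 60.2 and 83.6 TPM in the CD18Foxp3 libraries (1.86-fold, log2 fold change 0.90 ± 0.24 SE, adjusted p = 0.601). Il12a, which encodes the other subunit of IL-35, was at 0 TPM in every stimulated library. Lgals1, which encodes galectin-1, was at 893, 664 and 429.6 TPM in the CD18wt libraries and 936, 949 and 1740.5 TPM in the CD18Foxp3 libraries (log2 fold change 0.87 ± 0.31 SE, adjusted p = 0.913), again with CD18Foxp3 replicate 3 highest. Tgfb1 was at 220.4, 224 and 149 TPM in the CD18wt libraries and 143, 209.9 and 218 TPM in the CD18Foxp3 libraries and overlapped.

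Genes lower in CD18Foxp3 included some genes of follicular and of resting Treg. Of 11 genes of follicular regulatory T cells, 3 were separated and lower (background 1.46%) and 1, Icos, higher (background 1.79%), with a median of -0.31 that was -0.12 without CD18wt replicate 1. Pou2af1, a transcriptional coactivator of B cells and follicular T cells, was at 14.7, 10.7 and 11.1 TPM in the CD18wt libraries and 6.5, 7.06 and 4.9 TPM in the CD18Foxp3 libraries (1.95-fold lower, log2 fold change -0.96 ± 0.27 SE, adjusted p = 0.702). Serpina9, a protease inhibitor of germinal centers, was low in all libraries, at 0.706, 1.09 and 0.792 TPM in the CD18wt libraries and 0, 0.196 and 0.0531 TPM in the CD18Foxp3 libraries (log2 fold change -3.33 ± 0.91 SE, adjusted p = 0.627). Bcl6, the defining factor of follicular cells, was at 6.62, 2.52 and 5.33 TPM in the CD18wt libraries and 4.67, 5.05 and 2.86 TPM in the CD18Foxp3 libraries and overlapped, and Pdcd1, which encodes PD-1, was at 235 to 389 TPM in CD18wt and 237 to 337 TPM in CD18Foxp3. In the list of quiescence and central Treg genes 1 of 14 was separated, lower in CD18Foxp3 (background 1.46%). At an unadjusted p under 0.05, 5 were lower and none higher (background 2.24% and 2.65%). Of the 14, 10 had a negative and 4 a positive log2 fold change, and the median was -0.18. Id3, an inhibitor of E protein transcription factors, was at 94, 84.8 and 77.1 TPM in the CD18wt libraries and 47, 73 and 48.8 TPM in the CD18Foxp3 libraries (log2 fold change -0.60 ± 0.19 SE, adjusted p = 0.813). Tcf7, which encodes the memory and stem-like factor TCF-1, was at 537, 401 and 416 TPM in the CD18wt libraries and 359, 351 and 271 TPM in the CD18Foxp3 libraries (log2 fold change -0.45 ± 0.17 SE, adjusted p = 0.916), Bach2, a repressor of effector differentiation, at 39.2, 44.1 and 55.6 TPM in the CD18wt libraries and 36.5, 38.4 and 24.2 TPM in the CD18Foxp3 libraries, and Foxp1 at 49.9, 47 and 54.7 TPM in the CD18wt libraries and 45, 38.3 and 24.7 TPM in the CD18Foxp3 libraries. All CD18Foxp3 libraries were below all CD18wt libraries in these 3 genes, at folds under 1.5. Klf2 and Lef1 overlapped, with log2 differences of -0.43 and -0.11. The count of lower genes was 1 without CD18Foxp3 replicate 3, 2 without CD18wt replicate 1 or replicate 2, and 3 without CD18wt replicate 3 or CD18Foxp3 replicate 2, and without CD18wt replicate 1 2 genes were higher.

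The lower genes with the smallest p were mostly outside the lists. St8sia1, the sialyltransferase that makes the ganglioside GD3, was at 9.17, 8.75 and 7.45 TPM in the CD18wt libraries and 4.65, 3.72 and 3.24 TPM in the CD18Foxp3 libraries (2.17-fold lower, log2 fold change -1.12 ± 0.22 SE, adjusted p = 0.305). Crtam, an adhesion receptor of activated T cells, was at 6.78, 5.7 and 3.06 TPM in the CD18wt libraries and 1.72, 1.68 and 1.33 TPM in the CD18Foxp3 libraries (3.27-fold lower, log2 fold change -1.71 ± 0.36 SE, adjusted p = 0.403). Igfbp7, a secreted binding protein of insulin-like growth factors, was at 13.5, 19.9 and 11.6 TPM in the CD18wt libraries and 4.7, 4.46 and 2.75 TPM in the CD18Foxp3 libraries (3.78-fold lower, log2 fold change -1.92 ± 0.41 SE, adjusted p = 0.403), and Igf1r, a receptor of these factors, was at 27.9, 24.9 and 27.2 TPM in the CD18wt libraries and 19, 17.7 and 14.7 TPM in the CD18Foxp3 libraries (log2 fold change -0.63 ± 0.15 SE, adjusted p = 0.521). Actn1, the actin crosslinker α-actinin 1, which also binds the tail of β integrins, was at 82.3, 65.3 and 81.3 TPM in the CD18wt libraries and 46.6, 52.2 and 35.5 TPM in the CD18Foxp3 libraries (log2 fold change -0.75 ± 0.17 SE, adjusted p = 0.438). Pdgfb, a chain of platelet-derived growth factor, was at 41.9, 25.8 and 23.1 TPM in the CD18wt libraries and 9.86, 17.4 and 15.3 TPM in the CD18Foxp3 libraries (log2 fold change -1.08 ± 0.26 SE, adjusted p = 0.512). Sema4c, a semaphorin, was at 6.89, 5.39 and 4.94 TPM in the CD18wt libraries and 1.13, 2.04 and 2.72 TPM in the CD18Foxp3 libraries (log2 fold change -1.54 ± 0.35 SE, adjusted p = 0.471). Exph5 and Nacc2 were below 1 TPM in every library. Spry1, an inhibitor of ERK signalling, was the separated member of the ERK feedback list at 121, 146 and 154 TPM in the CD18wt libraries and 101, 97.9 and 57.9 TPM in the CD18Foxp3 libraries (log2 fold change -0.71 ± 0.21 SE, adjusted p = 0.724), and 3 of 10 members of that list were lower at an unadjusted p under 0.05 (background 2.24%), but 1 without CD18wt replicate 1, CD18wt replicate 2 or CD18Foxp3 replicate 3. Bmf, a proapoptotic BH3-only gene, was separated in counts scaled to library size, but its TPM overlapped at 2.19 to 2.96 TPM in CD18wt and 0.421 to 2.26 TPM in CD18Foxp3, while Pmaip1, which encodes the BH3-only protein NOXA, was higher at 22.8, 18.1 and 22.6 TPM in the CD18wt libraries and 31.7, 31.9 and 32.5 TPM in the CD18Foxp3 libraries (log2 fold change 0.62 ± 0.18 SE, adjusted p = 0.709). Vegfa was lower at 1.21 to 5.79 TPM in CD18wt and 0.729 to 0.882 TPM in CD18Foxp3, with a log2 fold change of -1.73 that ranged from -2.07 to -0.64 when single libraries were left out. Fam177a and Hspa1a also met the description, but 2.25% and 21.9% of their reads were placed uniquely, so their counts are uncertain. The near-identical gene 1700047I17Rik2 was at 0, 0 and 13.5 TPM in the CD18wt libraries and 20.4, 21.3 and 20.5 TPM in the CD18Foxp3 libraries, in the opposite direction to Fam177a, which was at 48.9, 32.4 and 19.7 TPM in the CD18wt libraries and 8.05, 9.36 and 10.8 TPM in the CD18Foxp3 libraries. Summed over both genes the levels were 48.9, 32.4 and 33.2 TPM in CD18wt and 28.4, 30.6 and 31.3 TPM in CD18Foxp3.

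Further genes among the 15 with the smallest p that were higher in CD18Foxp3 were Mreg, Gad1, Epas1, Tent5a and Crybg3. Mreg, melanoregulin, was at 2.95, 4.04 and 5.1 TPM in the CD18wt libraries and 11.7, 10.3 and 23.8 TPM in the CD18Foxp3 libraries (3.8-fold, log2 fold change 1.92 ± 0.37 SE, adjusted p = 0.295). Epas1, the hypoxia-inducible factor HIF-2α, was low at 0.464, 0.374 and 0.451 TPM in the CD18wt libraries and 1.78, 1.29 and 2.93 TPM in the CD18Foxp3 libraries (log2 fold change 2.23 ± 0.50 SE, adjusted p = 0.438). Gad1, glutamate decarboxylase, was at 1.32, 1.03 and 2.69 TPM in the CD18wt libraries and 4.71, 3.84 and 6.54 TPM in the CD18Foxp3 libraries and Tent5a, a poly(A) polymerase, at 34.7, 15.9 and 23.5 TPM in the CD18wt libraries and 51.2, 43 and 55.4 TPM in the CD18Foxp3 libraries. Crybg3 was at 3.59 to 6.88 TPM in CD18wt and 8.41 to 10.9 TPM in CD18Foxp3. The adenosine receptor Adora2b was separated at 1.97 to 3.05 TPM in CD18wt and 3.17 to 4.97 TPM in CD18Foxp3 and the myosin Myo6 at 1.25 to 3.74 TPM in CD18wt and 4.02 to 6.69 TPM in CD18Foxp3. Cd74, the invariant chain of MHC class II, was separated and higher at 96.8, 96 and 44.2 TPM in the CD18wt libraries and 103, 129 and 184 TPM in the CD18Foxp3 libraries (log2 fold change 0.80 ± 0.32 SE, adjusted p = 0.951), the lowest value coming from CD18wt replicate 3. The list of B cell markers summed to 62.7 to 142 TPM in CD18wt and 116 to 209 TPM in CD18Foxp3, most of it from Cd74. Of the 5 genes tested in that list only Cd74 had an unadjusted p under 0.05. The other 4 had negative log2 fold changes, and the list's median was -0.38. Without CD18wt replicate 3 the log2 fold change of Cd74 was 0.49.

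Other gene lists had no separated member (background 1.79% higher and 1.46% lower). At these shares, 0 in lists of this size does not set them apart from all genes tested. None was separated among 20 genes of T cell receptor signalling (median log2 fold change -0.09), 18 Nr4a, Egr and AP-1 early genes (-0.15), 14 NF-κB genes (-0.08), 16 genes of STAT signalling and its feedback (-0.01) and 19 interleukin receptor chains (0.18). The same held for 18 interferon-stimulated genes (0.16), 14 interferon-inducible GTPases (0.04) and 14 genes of MHC class I presentation (-0.14). It also held for glycolysis (-0.07), cholesterol and fatty acid synthesis (0.01), the ATF4 amino acid program (-0.14), the unfolded protein response (0.11), oxidative phosphorylation (0.06), ribosome biogenesis (-0.03), the Myc network (-0.04) and cytosolic ribosomal proteins (-0.03). The 9 chemokine ligands tested had no separated member either, but a median of -0.47. Of these, 1 was higher and 1 lower at an unadjusted p under 0.05 (background 2.65% and 2.24%). Their median was -0.19 without CD18wt replicate 2 and -0.74 without CD18wt replicate 3. These medians do not show that the programs were equal, and single members differed without overlap at folds under 1.5. Relb, an NF-κB subunit, was at 61.4 to 62.7 TPM in CD18wt and 38.2 to 53.6 TPM in CD18Foxp3 (unadjusted p = 0.0358, edgeR quasi-likelihood test), and Hsp90b1, a chaperone of the endoplasmic reticulum, at 534 to 573 TPM in CD18wt and 653 to 713 TPM in CD18Foxp3 (unadjusted p = 0.036, same test).

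**Figure D4:**
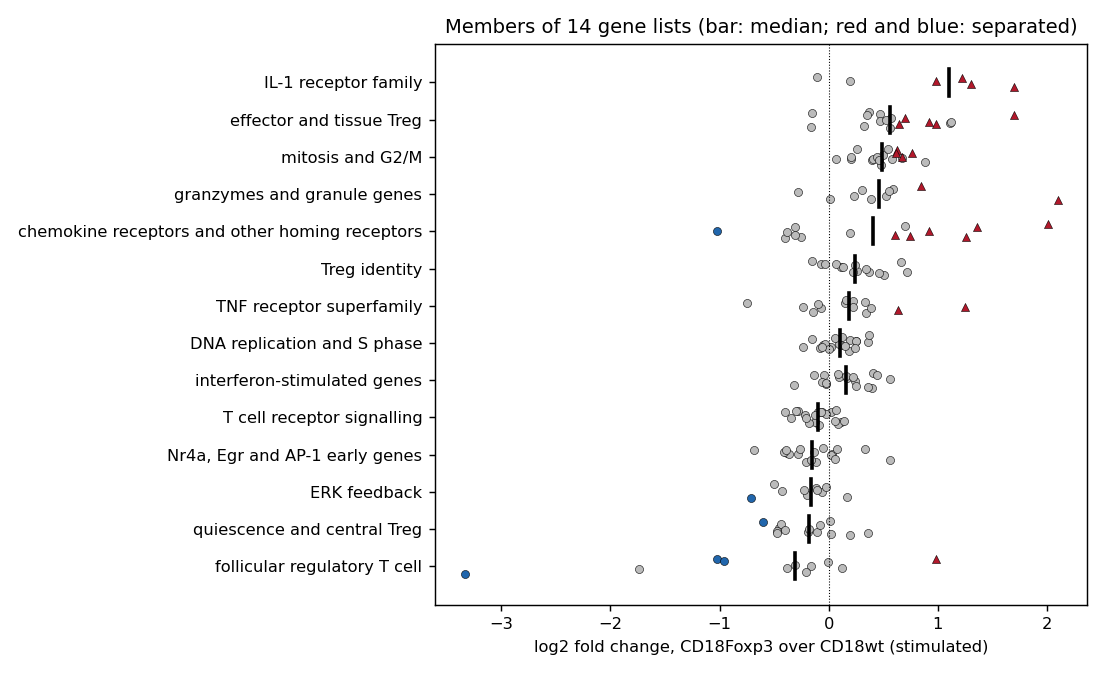
Log2 fold change of CD18Foxp3 over CD18wt for every tested member of 14 gene lists, 1 point per gene, with separated genes in red (higher) or blue (lower) and a black bar at the list's median. The bar lies at 1.10 for the IL-1 receptor family, 0.56 for effector and tissue Treg and 0.49 for mitosis, and at -0.31 for follicular regulatory T cells.

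Values from Treg of both genotypes kept without stimulation are set beside these. By the animal numbers in the deposited names, the libraries of both cultures came from the same animals, so the comparisons are not taken as independent. Without stimulation, 16 of 11829 genes (0.135%) passed the threshold of the study in edgeR's quasi-likelihood test, 14 of which were also tested after stimulation. Gpr15 was at 22.5, 20.8 and 12.3 TPM in CD18wt and 57.2, 63.6 and 86.5 TPM in CD18Foxp3 without stimulation, with no overlap (log2 fold change 1.86 ± 0.20 SE, adjusted p = 0.0043), and its difference after stimulation was 2.01 on the same scale. Il18r1 was at 47.7, 39.7 and 39.1 TPM in CD18wt and 82.7, 79.4 and 91.7 TPM in CD18Foxp3 without stimulation (adjusted p = 0.00368), and its log2 differences were 0.98 without and 0.98 with stimulation. Pou2af1 was at 23, 26.3 and 29.6 TPM in CD18wt and 8.14, 11.3 and 9.46 TPM in CD18Foxp3 without stimulation (adjusted p = 0.0043), with log2 differences of -1.47 and -0.96. Serpina9, Myo6 and Itgb2 were also past the threshold without stimulation, at log2 differences of -2.59 ± 0.28, 0.86 ± 0.11 and -0.85 ± 0.09 SE, and were separated after it. Il21, the helper cytokine of follicular T cells, had log2 differences of -1.78 ± 0.22 without (adjusted p = 0.00579) and -1.74 ± 0.59 SE with stimulation (adjusted p = 0.852) and was not separated after it. Hif1a, which encodes a hypoxia-inducible factor, Ly6c1, a membrane protein of the Ly6 family, and Tox2, a factor of follicular T cells, passed the threshold without stimulation and overlapped after it. Their log2 differences were -0.69, 0.79 and -0.72 without and 0.18, 0.03 and -0.38 with stimulation. Cebpa, Ier5l and the interferon-inducible GTPase gene Tgtp1 likewise passed without stimulation, at -0.89, -1.56 and 0.66, and had -0.23, -1.11 and 0.36 with it.

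Whether a genotype difference depended on stimulation was tested as the interaction of both factors over all 12 libraries. No gene of 12636 passed an adjusted p of 0.05 in edgeR's quasi-likelihood test (0%), and 485 (3.84%) had an unadjusted p under 0.05. DESeq2 called 5 and the likelihood ratio test 10 at an adjusted p of 0.05. Median log2 fold changes without stimulation were 0.47 for the IL-1 receptor family, 0.34 for homing receptors and 0.37 for mitosis genes. They were 0.20 for effector and tissue Treg, -0.09 for Treg identity and -0.67 for follicular genes, against -0.00437 over all genes tested. Several genes that were separated with stimulation, among them activation receptors, overlapped without it. Tnfrsf8 was at 10.3, 16 and 13.8 TPM in CD18wt and 9.28, 13 and 11.8 TPM in CD18Foxp3 without stimulation, with overlap, and separated after it (interaction log2 difference 1.51 ± 0.36 SE, adjusted p = 0.792). Icos was at 137, 153 and 139 TPM in CD18wt and 146, 138 and 202 TPM in CD18Foxp3 without stimulation (interaction log2 difference 0.83 ± 0.26 SE, adjusted p = 0.987). Tnfrsf9 was at 175, 147 and 164 TPM in CD18wt and 156, 179.9 and 177 TPM in CD18Foxp3 without stimulation (interaction log2 difference 0.59 ± 0.19 SE, adjusted p = 0.987), and Itgb8 at 15, 17.3 and 13.6 TPM in CD18wt and 11.6, 13.9 and 11.8 TPM in CD18Foxp3 (interaction log2 difference 1.04 ± 0.21 SE, adjusted p = 0.658). Il13 had 0.534 TPM at most without stimulation (interaction log2 difference 4.71 ± 1.44 SE, adjusted p = 0.987). None of the differences between the cultures given here passed the correction in the quasi-likelihood test.

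**Figure D5:**
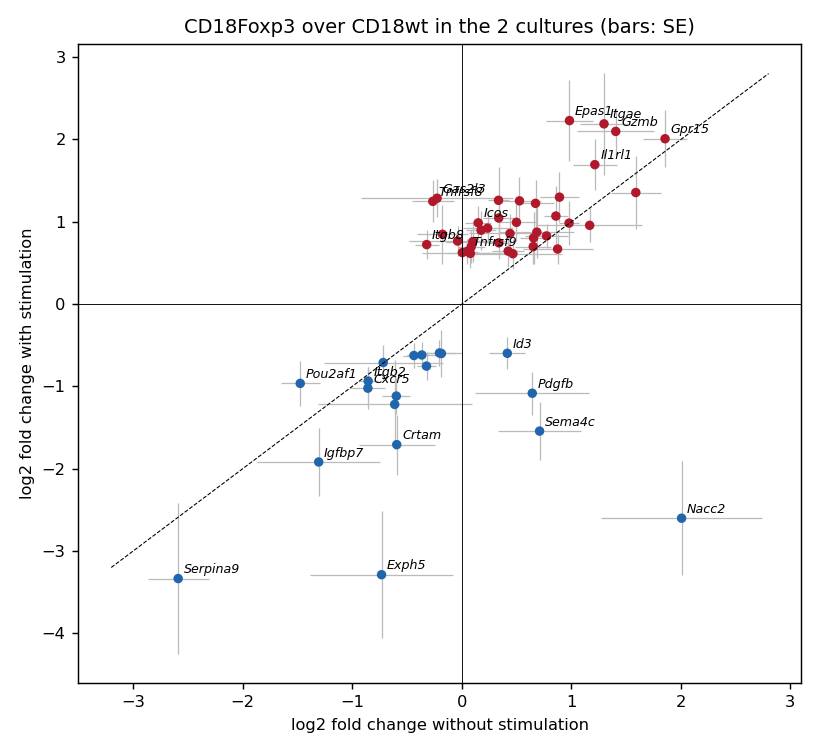
Log2 fold change of CD18Foxp3 over CD18wt without stimulation (x axis) and with stimulation (y axis), with bars of 1 SE, for 56 named separated genes that were tested in both cultures. Fam177a and Hspa1a, whose counts are uncertain, are not shown. The dashed line marks equal differences, Gpr15 (1.86 and 2.01) lies near it, and Nacc2 (2.01 and -2.60) and Sema4c (0.71 and -1.54) have opposite signs.

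Intron reads, which come largely from unspliced RNA, were counted separately from exon reads. Of 10917 genes tested none passed an adjusted p of 0.05 in edgeR's quasi-likelihood test, and 384 (3.52%) had an unadjusted p under 0.05. Intron log2 differences of 1.49 ± 0.35 SE for Tnfrsf8, 1.12 ± 0.26 for Il18r1, 1.80 ± 0.41 for Itgae and 0.71 ± 0.24 for Icos stood beside exon differences of 1.25, 0.98, 2.19 and 0.99. Crtam and Actn1 had intron log2 differences of -3.39 ± 0.87 and -1.47 ± 0.39 SE. For Itgb8 the intron difference was 0.06 ± 0.31 SE, beside 0.72 in exons. Intron and exon reads come from the same libraries, so these values are no independent support.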

How the data were processed

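RNA of sorted splenic Treg was reverse-transcribed from polyadenylated RNA and sequenced as single reads. The authors mapped the reads to GRCm38 in CLC Genomics Workbench and deposited, per gene and library, raw counts of exon, intron and junction reads, each for all reads and for those with a single placement. TPM were deposited beside the counts, and values recomputed from counts and exon lengths differed from them by at most 5e-07 TPM. Samples were grouped by their labels. For the 6 stimulated libraries, total exon counts entered edgeR 4.0.16 (R 4.3.3) with filterByExpr (minimum count 10), TMM normalization, robust quasi-likelihood tests, and Benjamini-Hochberg adjustment over all genes tested. The SE is the log2 fold change divided by the square root of F. The interaction was fitted over all 12 libraries, and the steps were tested on simulated data. Alternatives were DESeq2 1.42.0, the likelihood ratio test, limma 3.58.1 with a pseudocount of 1 or 0.1 added to TPM before log2, other normalizations, filters and read classes, all 12 libraries, a replicate block, and each library left out. TPM are shown per library. The p-values weigh a difference against the spread between libraries, which within a culture are numbered as biological replicates. The main interaction fit held no animal term, so both cultures of an animal entered as separate libraries.

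Replicates differed by more than counting error (mean chi-square per gene 11.8 to 64.2 for pairs of one genotype). Equal replicate numbers did not pair the genotypes (correlations of deviations from the group mean -0.13, -0.08 and -0.20). Between the cultures, libraries of one genotype with equal numbers correlated weakly, at 0.16, -0.06 and -0.10 in CD18wt and 0.17, 0.07 and 0.22 in CD18Foxp3. The deposited names repeat an animal number between the cultures, and a fit with the animal as a block left the interaction count at 0.

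The comparison, the 49 gene lists (658 genes, of which 2 were not analysed here and 580 were tested) and all rules were chosen with earlier results of these data known. Genes eligible to be named were the β2-integrin family, the first 4 members of each list, the 15 higher and 15 lower separated genes with the smallest p, every separated list member (45), genes past the threshold without stimulation, and a marker that stands apart in 1 library. Further list members with an unadjusted p under 0.05, 1700047I17Rik2 and the genes in the closing observations, were named after their values were seen. Sequences are from GENCODE and RefSeq. RPKM columns were not used here, and a few members of the lists are counted but not reported by name.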

Additional observations from a re-analysis of the deposited data

Results flagged for a closer look

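In 4 of the named genes the libraries of the genotypes did not overlap in either culture, but in opposite directions. For each, the test of the difference itself, the interaction over all 12 libraries, missed an adjusted p of 0.05. Il2ra, the α chain of the IL-2 receptor, was lower in CD18Foxp3 without stimulation (133, 170.2 and 156 TPM in CD18wt and 133, 124 and 107 TPM in CD18Foxp3) and higher with it (883, 926 and 1131 TPM in the CD18wt libraries and 1550.01, 1151 and 1414 TPM in the CD18Foxp3 libraries; interaction log2 difference 0.85 ± 0.22 SE, adjusted p = 0.847). Id3 was higher in CD18Foxp3 without stimulation (87.6, 68.4 and 93.5 TPM in CD18wt and 114, 130.2 and 94.1 TPM in CD18Foxp3) and lower with it (interaction log2 difference -1.01 ± 0.27 SE, adjusted p = 0.894). Sema4c was higher without stimulation (0.858, 1.55 and 0.911 TPM in CD18wt and 1.71, 2.23 and 1.61 TPM in CD18Foxp3) and lower with it (interaction log2 difference -2.26 ± 0.51 SE, adjusted p = 0.658). Nacc2, a transcriptional repressor with 2 to 28 exon reads per stimulated library, was at 0.0202, 0.266 and 0.063 TPM in CD18wt and 0.592, 0.355 and 0.555 TPM in CD18Foxp3 without stimulation and 0.531, 0.624 and 0.372 TPM in the CD18wt libraries and 0.121, 0.0691 and 0.04997 TPM in the CD18Foxp3 libraries with it (interaction log2 difference -4.63 ± 1.07 SE, adjusted p = 0.658). Groups of 3 libraries are too small for a check of single outlying values.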

How the results depend on the processing

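The count of genes past the threshold, 0 with edgeR's quasi-likelihood test, was 22 with DESeq2, 16 with the likelihood ratio test, 61 with no filter on low counts, 1 with limma on log2(TPM + 0.1), 1 with the replicate block (Gzmb) and 0 to 2 when single libraries were left out (the highest without CD18wt replicate 3: Fam177a and 1700047I17Rik2, which share reads). Separated genes numbered 454 higher and 328 lower with DESeq2, 460 and 321 with no filter, 132 and 94 on log2(TPM + 1), and 283 to 485 and 264 to 410 when single libraries were left out, where 2 against 3 libraries separate more easily. Under the replicate block they were 214 and 175. Itgb2 stayed between -1.04 and -0.79 on the log2 scale and passed the threshold with DESeq2 (-0.94), the likelihood ratio test (-0.94) and no filter (-0.93). The interaction, 0 as reported and with each library left out, called 5 genes with DESeq2, 10 with the likelihood ratio test and 60 with no filter. Of 2330 values of 138 named genes, 2247 kept direction and side of the threshold, 65 passed it and 18 changed sign, each of a gene whose genotypes overlapped. As log2 ranges over single libraries left out, and other settings in parentheses, these were Itgb7 -0.36 to 0.11, Klf2 -0.75 to 0.0876, Bcl6 -0.44 to 0.13, Tgfb1 -0.26 to 0.11, Ifng -0.57 to 0.56, -0.0003 (limma on log2(TPM + 0.1)), Ly6c1 -0.25 to 0.20, -0.0085 (unique exon reads), -0.0259 (limma on log2(TPM + 1)), -0.0279 (limma on log2(TPM + 0.1)), -0.0146 (replicate block), Cebpa -0.60 to 0.0746, H2-Ab1 -1.60 to 0.55 and H2-Eb1 -1.36 to 0.074. H2-Ab1 and H2-Eb1 changed sign without CD18wt replicate 2. The causes were not tested. Apart from these counts, the replicate block moved no named gene other than Gzmb past the threshold.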

Other observations

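Several separated genes with high levels belonged to no list and were chosen after their values were seen. Penk, which encodes proenkephalin, the precursor of opioid peptides, was at 232, 223 and 220.4 TPM in the CD18wt libraries and 305, 339 and 961 TPM in the CD18Foxp3 libraries (log2 fold change 1.26 ± 0.41 SE, adjusted p = 0.902). All 3 CD18Foxp3 libraries were higher, and without replicate 3 the log2 fold change was 0.52. Crem, a transcription factor of cAMP signalling, was at 82, 62.3 and 66 TPM in the CD18wt libraries and 122, 90.1 and 109.5 TPM in the CD18Foxp3 libraries (adjusted p = 0.63). Samsn1, an adaptor protein of lymphocytes, was at 104, 83.3 and 104 TPM in the CD18wt libraries and 170.5, 115 and 154 TPM in the CD18Foxp3 libraries (adjusted p = 0.709). Cldnd1 was at 253, 259 and 209.9 TPM in the CD18wt libraries and 378, 319 and 382 TPM in the CD18Foxp3 libraries and Gmfg, an actin regulator of leukocytes, at 51.8, 32.7 and 39.5 TPM in the CD18wt libraries and 59.5, 63.5 and 83.9 TPM in the CD18Foxp3 libraries. Among the lower genes, Eif4ebp1, an inhibitor of cap-dependent translation, was at 38.2, 47.2 and 58 TPM in the CD18wt libraries and 25.6, 34.2 and 28 TPM in the CD18Foxp3 libraries (adjusted p = 0.709), and Erf, a repressor regulated by ERK, at 45, 55.1 and 53.3 TPM in the CD18wt libraries and 16.3, 44.1 and 30.3 TPM in the CD18Foxp3 libraries. Ptms, parathymosin, was at 223, 181 and 160.2 TPM in the CD18wt libraries and 44.5, 136 and 143 TPM in the CD18Foxp3 libraries, its lowest value coming from CD18Foxp3 replicate 1, the library that stood apart.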
